A study of Rattus norvegicus with 4 samples.

Results

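The regions described here are the H1T2 ChIP-seq peaks of rat spermatids that lay outside introns and whose detailed HOMER annotation, read at the peak centre, named either no repeat or a CpG island. Annotated rows were joined to the deposited peak list by chromosome, start and end. Of the 11570 peaks of the list, 1930 (16.7%) carried an annotation in the copy of the annotation table used here, and 237 of these met the rule, 33 as CpG island peaks and 204 as non-repeat peaks. That copy was shortened and held the strongest peaks, down to a -log10 p of 17.78; the annotation of the weaker peaks was not analysed here, so weaker peaks of the same kind are not described. The detailed annotation named a repeat or CpG island only for intergenic, intronic or uncategorised peaks. All 28 regions on a promoter-TSS, exon, TTS, non-coding transcript or UTR carried that gene feature in its place, so they count as non-repeat peaks by the rule whether or not a repeat or CpG island lies there. The weakest regions just inside that limit lay nearest Msx2 (-log10 p of 17.82) and Adgre4 (-log10 p of 17.86), and the strongest peak without an annotation here stood at 17.78.

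The series held 2 IP samples made with an antibody against H1T2 and 2 input DNA samples without antibody. All 4 came from testes of rats aged 35 to 50 days, and the cells are given as round and elongating spermatids. No genotype, strain or treatment is given in the labels. Per the file header, the peaks were called on the merged IP against the merged input, so each peak has 1 value and no replicate error, and whether the IP samples differed could not be examined. A fold enrichment is followed by its 95% interval, which was taken exactly from the Poisson distribution for the tag number while the background was treated as known, and which covers counting error only.

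H1T2, encoded by H1fnt, is a linker histone of the testis that is made in spermatids as they condense their nuclei. Linker histones bind the nucleosome where DNA enters and leaves it, and late in spermatid development most histones are replaced by transition proteins and then protamines. CpG islands are GC-rich stretches with many CG dinucleotides that often lie at promoters.

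Sequences are shown first for the regions that can be tied to one. A CpG island region nearest the olfactory receptor gene Olr299, at chr1:213008609-213009881 of rn6, and an intergenic region nearest Homez, at chr15:33478042-33479362, were chosen by the study for ChIP-PCR, and the primers it lists under the names CpG and Intergenic are given 5′ to 3′. None of the CpG primers holds a CG dinucleotide, and the Intergenic forward primer holds 1. That these primer pairs belong to these peaks is inferred from their names. Where the primers lie was not tested, because no rn6 sequence was used here.
CpG forward: atttgccaatactcaggaaatgatacc
CpG reverse: cactcatttcaaaacaagctgcaatta
Intergenic forward: taattacccacatcgagagctagtaag
Intergenic reverse: cagcagaaaatagtctaaagggtactg

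The study reports promoter peaks at many genes over its full list, and the weaker peaks are not covered here. Regions nearest ribosomal RNA genes and their neighbours are described further on as the ribosomal RNA group. Apart from these, a single one of the regions was annotated as promoter-TSS. It lay at chr4:133285311-133285557 of rn6 with its centre 118 bp before the start of Ppp4r2, which encodes a regulatory subunit of protein phosphatase 4. By its length and its distance from the rn6 start, the peak would fall almost wholly on the 250 bases before that start. The 250 bases before the RefSeq start of Ppp4r2 are therefore shown, with CG dinucleotides in capitals. They are taken from the plus strand of GRCr8, chr4:135010669-135010918, a different build from that of the peaks, and no coordinates were converted. Whether both builds place the start at the same base was not checked.
Ppp4r2 promoter: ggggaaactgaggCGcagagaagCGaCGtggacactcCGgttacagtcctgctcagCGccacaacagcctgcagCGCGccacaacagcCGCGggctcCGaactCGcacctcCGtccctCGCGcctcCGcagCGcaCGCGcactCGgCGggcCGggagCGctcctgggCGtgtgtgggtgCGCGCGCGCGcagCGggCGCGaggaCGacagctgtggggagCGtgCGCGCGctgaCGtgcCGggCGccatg
This stretch held 39 CG dinucleotides, against a median of 5 over the same stretch of 33469 RefSeq promoters, and 1.43% of promoters held as many or more. Its GC content was 73.6%, against a median of 51.2%. The GC box GGGCGG was not found in it on either strand (CCGCCC on the other), whereas 30.5% of promoters held it. The pileup of the rn6 peak was 24 tags over a background of 2.07, a fold enrichment of 11.6 (7.44 to 17.3).

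Of the 237 regions, 199 (84.0%, Wilson 95% interval 78.8 to 88.1%) were intergenic, 9 were promoter-TSS, 8 were TTS, 5 exonic, 4 in non-coding transcripts and 2 in 3' UTRs, and 10 on contigs, an unlocalised sequence or the mitochondrial genome had no category. Of the other annotated peaks outside introns 95.5% were intergenic and the rest had no category, because every genic peak outside introns met the rule, so these shares follow from the rule. For the 227 regions with an assigned TSS the median separation from it was 88.4 kb. It was 114.1 kb over 179 regions without the ribosomal RNA group, and 123.8 kb for the other annotated peaks. The rule bears on this comparison too, as it places all genic peaks outside introns among the 237. Of the 33 CpG island regions, 30 were intergenic and 3 had no category.

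The local background differed widely. It is the number of tags expected at the peak, obtained as pileup divided by fold enrichment, and its lowest possible value, set by the whole genome, is 1.65 tags. The median was 15.1 tags for the 237 regions, 9.13 times the genome level, against 6.0 for the other 1693 annotated peaks and 3.52 for the whole list. Without the ribosomal RNA group and unplaced sequence it was 9.61 tags over 178 regions, 5.81 times the genome level. L1_Rn peaks outside introns (389) had a median of 4.96 tags and RatSatRep2 peaks outside introns (453) one of 6.21, whereas the 55 non-repeat and CpG island peaks inside introns had 16.6. Among all other annotated peaks, those on satellites or simple repeats (238) had 32.3 and those on other repeats (43) had 33.5, so the regions stood above some repeat classes and below others. A background of at least 10 times the genome level was found at 113 regions (47.7%), at 250 of the other annotated peaks (14.8%) and at 593 peaks of the whole list (5.125%). The part that repeated or multi-copy sequence has in these backgrounds was not tested. The annotation reads the peak centre only, and in 43 regions (18.1%) the summit lay over 200 bp from it.

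**Figure D1:**
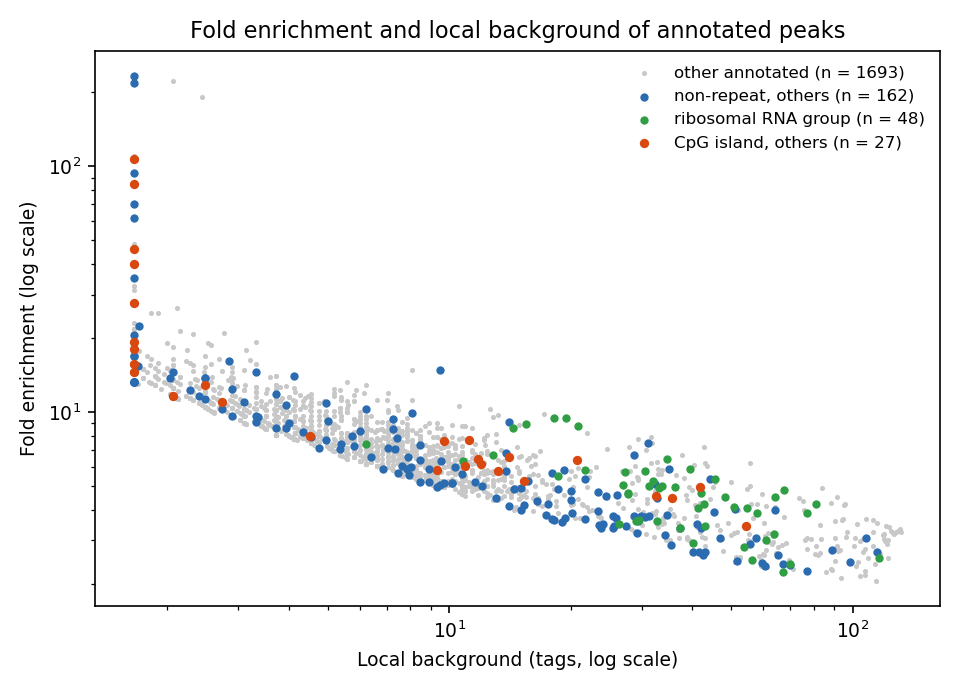
Fold enrichment against local background in tags, both on log scales, for the 237 regions (coloured by class, with the ribosomal RNA group apart) and the other 1693 annotated peaks (grey). A column of regions stands at the genome background of 1.65 tags and reaches a fold enrichment of 233, while regions of the ribosomal RNA group lie to the right, below 10.

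**Figure D2:**
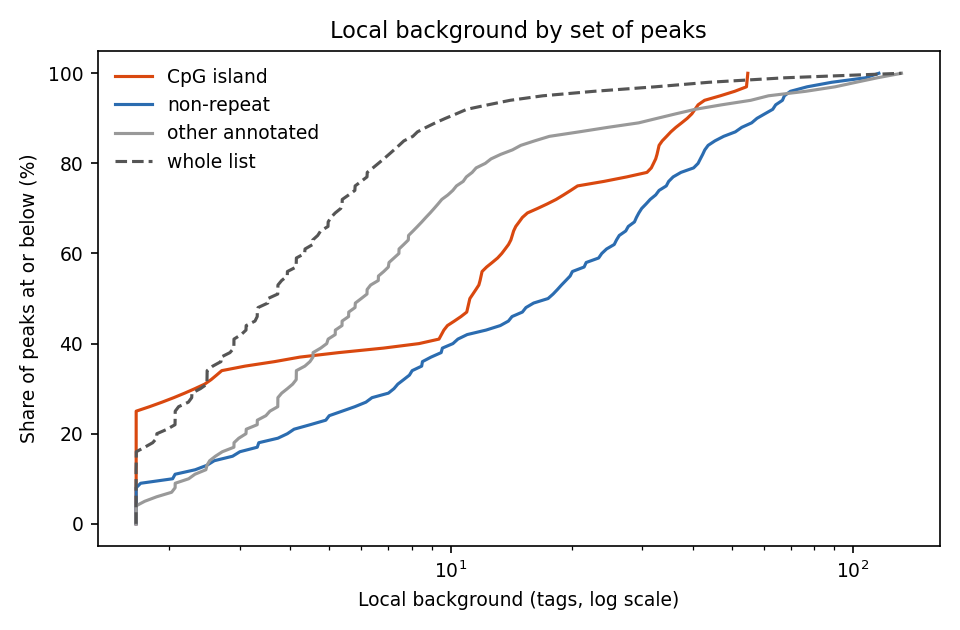
Share of peaks at or below each local background (tags, log scale) for CpG island regions, non-repeat regions, the other annotated peaks and the whole list. The line of non-repeat regions lies to the right of the whole list, with medians of 17.5 and 3.52 tags, and the line of CpG island regions starts high because 27.3% of them stand at the genome background.

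Fold enrichment was spread widely. The median was 5.58 (quartiles 3.87 and 9.19, range 2.23 to 233), below the 7.74 of the other annotated peaks and the 6.15 of the whole list. A fold enrichment of at least 10 was reached by 52 of 237 regions (21.9%, 17.1 to 27.6%), and by 26.7% of the other annotated peaks and 7.87% of the whole list. The share near that of the other annotated peaks sets nothing apart, and the whole list includes weaker peaks that the annotation used here does not reach. A fold enrichment of at least 20 was seen at 13 regions (5.49%), at 19 other annotated peaks (1.12%) and at 32 peaks of the whole list (0.277%). Of the 19, 5 were among the 55 non-repeat and CpG island peaks in introns (9.09% of the 55). Among the 10 largest fold enrichments of the whole list, 7 belonged to the 237 regions. The 237 make up 2.05% of the list and 12.3% of the annotated peaks. All 7 stood at the genome background, where a given pileup yields the largest fold enrichment.

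A background at the genome level was found at 27 regions (11.4%, 7.95 to 16.1%), at 4.67% of the other annotated peaks and at 16.1% of the whole list. It was as frequent among the non-repeat and CpG island peaks in introns (14.5%), LTR peaks (15.6%) and peaks on satellites or simple repeats (14.3%). Every one of the 27 had a fold enrichment of at least 10, which the limit on p requires at so low a background. Their median fold enrichment was 18.1, and the median of the 210 regions above the genome level was 5.13. CpG island regions stood at the genome level in 9 of 33 cases (27.3%, 15.1 to 44.2%) and non-repeat regions in 18 of 204 (8.82%, 5.65 to 13.5%). The median fold enrichment was 7.61 for CpG island regions and 5.19 for non-repeat regions, and their median lengths were 538 and 364 bp. Without the ribosomal RNA group and unplaced sequence the medians were 9.49 for 24 CpG island regions and 5.79 for 154 non-repeat regions. No test over regions was run, since regions are not replicates.

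The median length was 400 bp, against 350 bp for the other annotated peaks and 267 bp for the whole list. It was 348 bp without the ribosomal RNA group, and RatSatRep2 peaks outside introns also had a median of 400 bp, so the median sets nothing apart. At least 1000 bp were covered by 36 regions (15.2%), by 4.61% of the other annotated peaks and by 1.14% of the whole list. The ribosomal RNA group held 18 of these 36, and without it the share was 9.52% (18 of 189). Among the non-repeat and CpG island peaks in introns it was 20.0%. The 10 regions with the largest fold enrichment all stood at the genome background, and 6 of them covered at least 1000 bp. Of all 27 regions at the genome background, 8 (29.6%) did so.

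The strongest placed region was a CpG island peak at chr4:157607087-157608265, 39.1 kb upstream of Nop2, which encodes a nucleolar RNA methyltransferase. Its pileup was 178 tags and its fold enrichment 108 (92.4 to 125). A non-repeat region near Sh3bgr on chromosome 11 followed with 156 tags, and its enrichment was 94.3-fold (80.1 to 110). The CpG island region near Myo7a, which encodes an unconventional myosin of hair cells, had 140 tags, enriched 84.7-fold (71.2 to 99.9). These 3 intervals overlap, and the order of the 3 regions was not tested. The Homez region, one of those chosen for ChIP-PCR, had 116 tags, enriched 70.2-fold (58.0 to 84.1). A region 54.0 kb upstream of Rab11a, a small GTPase of recycling endosomes, reached 61.7 (50.3 to 74.9), and a second region near the same gene reached 13.3. Each of these regions was more than 30 kb from the nearest TSS apart from that second one, which lay at 24.6 kb.

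The largest fold enrichments among the 237 regions, 233 (211 to 258) and 219 (197 to 243), were on 2 unplaced contigs, with 386 and 362 tags over a background of 1.65. The 11 regions on unplaced, unlocalised or mitochondrial sequence had a median fold enrichment of 5.80. Both mitochondrial regions had 162 tags, over backgrounds of 55.7 and 67.2, and fold enrichments of 2.91 and 2.41.

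A peak annotated on a promoter-TSS, exon, TTS or UTR could not count as a CpG island region. Islands at promoters are therefore not covered here. A TSS was assigned to 30 CpG island regions and was no farther than 10 kb for 8 (26.7%), of which 3 belonged to the ribosomal RNA group. Over all regions with an assigned TSS it was as near for 41 of 227 (18.1%). Without the ribosomal RNA group the shares were 5 of 24 (20.8%) and 17 of 179 (9.5%). Olr299, an olfactory receptor gene, had its region at 2.96 kb from the start with 76 tags, enriched 46.0-fold (36.2 to 57.5). RT1-M6-2, a class I gene of the rat major histocompatibility complex, had one 1.16 kb upstream with 66 tags and 39.9 (30.9 to 50.8). Both covered at least 1000 bp, and their summits lay 222 and 282 bp from the centre that carried the CpG island annotation. Gnas, an imprinted locus that encodes a G protein alpha subunit, had a region 2.46 kb upstream with 30 tags, enriched 11.0-fold (7.41 to 15.7). Regions upstream of Ctf2 (9.03 kb) and Copg1 (9.30 kb) had 18.1 (12.2 to 25.9) and 15.7 (10.3 to 23.0). Farther from a start, the CpG island region near Fgf8, a fibroblast growth factor, reached 27.8 (20.4 to 37.1).

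Hils1 was the gene of spermatid chromatin with a region in its own body. It encodes another linker histone of spermatids, and the region at chr10:82775783-82776373 fell in its only exon, with the centre 387 bp after the start. The pileup was 58 tags at the genome background, a fold enrichment of 35.1 (26.6 to 45.3). Hnrnpa1, which encodes an RNA-binding protein of splicing, had a region in its 3' UTR with 38 tags and 22.3 (15.8 to 30.6). The end of the olfactory receptor gene Olr1474 had 46 tags and 16.1 (11.8 to 21.5). Ctbp2, a transcriptional corepressor, and Rn7sl1, the RNA of the signal recognition particle, each had 34 tags over 2.48 and 13.7 (9.49 to 19.1). RT1-A2, a classical class I gene, had an exonic region with 36 tags and 9.0 (6.30 to 12.5), and the 3' UTR region nearest Robo4 had 128 tags over a background of 14.1 and 9.10 (7.59 to 10.8). The exonic region of LOC363337 was the lowest of them at 3.57 (2.77 to 4.53). The lower bounds of Hils1, Hnrnpa1, Olr1474, Ctbp2 and Rn7sl1 lay above the median of the other annotated peaks, 7.74, and those of Robo4, RT1-A2 and Ppp4r2 below it. The limit on p requires a high fold enrichment where the background is low, so this order is a description.

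**Figure D3:**
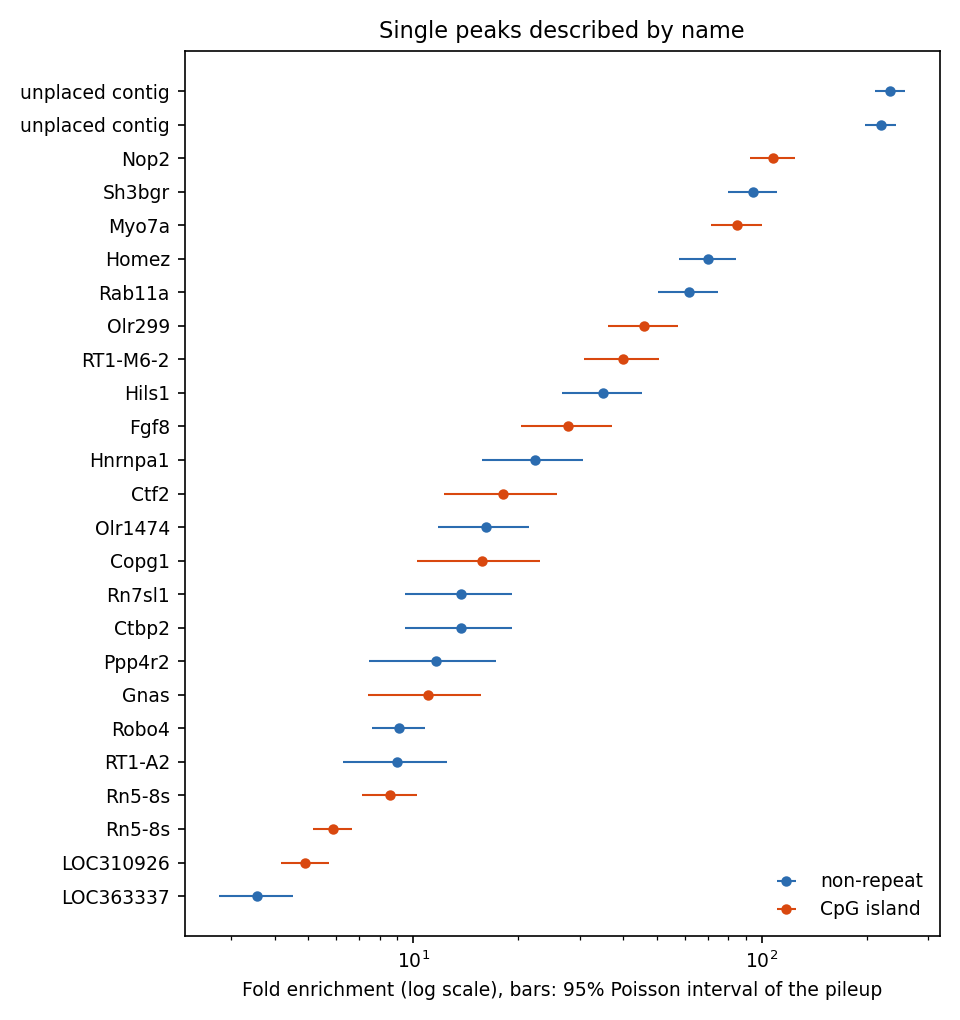
Fold enrichment (log scale) of the regions with the largest values, the genic regions outside the ribosomal RNA group and the CpG island regions within 10 kb of a TSS, by nearest gene; bars are 95% Poisson intervals of the pileup. Values run from 3.57 in LOC363337 to 233 on an unplaced contig, and the intervals of the contig regions lie above those of all others shown.

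Many of the regions lay close together. Another of the 237 lay within 10 kb of 112 regions (47.3%, 41.0 to 53.6%), and 16.7% of the other annotated peaks, of any class, had another of those peaks as near. Any peak of the list lay within 10 kb of 155 regions (65.4%), of 38.8% of the other annotated peaks and of 30.8% of the whole list. The share was 67.3% for the non-repeat and CpG island peaks in introns, 60.0% for LTR peaks and 88.4% for peaks on other repeats, so closeness is not particular to these regions. Regions joined over gaps of up to 100 kb formed 127 loci, of which 89 held 1 region and 13 held at least 4. The 35 regions with no other peak within 100 kb had a median fold enrichment of 11.0 and a background of 2.73 tags, whereas the other 202 had 5.11 and 19.3.

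The ribosomal RNA group was defined by the nearest gene and made up 48 regions (20.3%, 15.6 to 25.8%). Of these, 16 were nearest Rn5-8s, Rn28s or Rn5s and 32 were nearest LOC310926 (21) or LOC257642 (11), a pair of loci annotated as protein-coding, and 10 lay over 100 kb from the start of the gene, so not every one need lie in ribosomal DNA. By the same definition, 4.31% of the other annotated peaks belonged to the group. The background of the 48 regions was high, with a median of 35.5 tags, and their median pileup of 168 tags gave a median fold enrichment of 4.64, with 0 of 48 reaching 10. The largest cluster, on chromosome 14, held 20 regions over 161 kb, and the next, on chromosome 1, held 12 over 64.7 kb. Of the 9 promoter-TSS regions, 8 belonged to this group, and the strongest by p was at Rn5-8s on chromosome 6 with 184 tags and a fold enrichment of 8.81. The strongest TTS region, at Rn5-8s on chromosome 5, had 326 tags over 67.6 and 4.82. Among non-coding exons Rn28s led with 288 tags and 4.49, and among coding exons a chromosome 14 region with 224 tags and 6.45. The exon of that region is of the transcript annotated at LOC257642, while its nearest start, 48.3 kb away, is that of LOC310926. The strongest intergenic one was a CpG island region near LOC310926 with 172 tags and 9.45. The region at Rn5s on chromosome 12 had the highest background of all 237, at 116 tags, and a fold enrichment of 2.55. How many copies of these genes the tags came from was not tested.

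Several genes were nearest to at least 4 regions. Vom2r9, a vomeronasal receptor gene, was nearest to 11 regions between 125.1 and 249.9 kb away, with fold enrichments of 2.38 to 4.99 (median 2.70) over a median background of 42.6 tags. Pdx1, a homeobox gene of pancreas development, was nearest to 5 within 17.6 kb of each other, with a median of 9.52; the strongest had 140 tags and 14.8 (12.4 to 17.4). The weakest of them, 5.86 (5.09 to 6.72) and 6.68 (5.77 to 7.69), overlapped the strongest Vom2r9 region (3.81 to 6.42) in their intervals. Ezh2, the methyltransferase of the Polycomb repressive complex, was nearest to 5, of which 2 were CpG island regions, with fold enrichments of 3.37 to 4.56 at 54.4 to 67.7 kb. Adgre4 was nearest to 6 (median 4.90), LOC363337 to 9 (median 4.18), Cdh8 to 4 (4.47), Man2b1 to 4 (5.41) and Smpdl3a to 4 (3.34). In the Smpdl3a group the background ran from 10.8 to 115 tags and the fold enrichment was lowest, 2.68, where the background was highest.

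**Figure D4:**
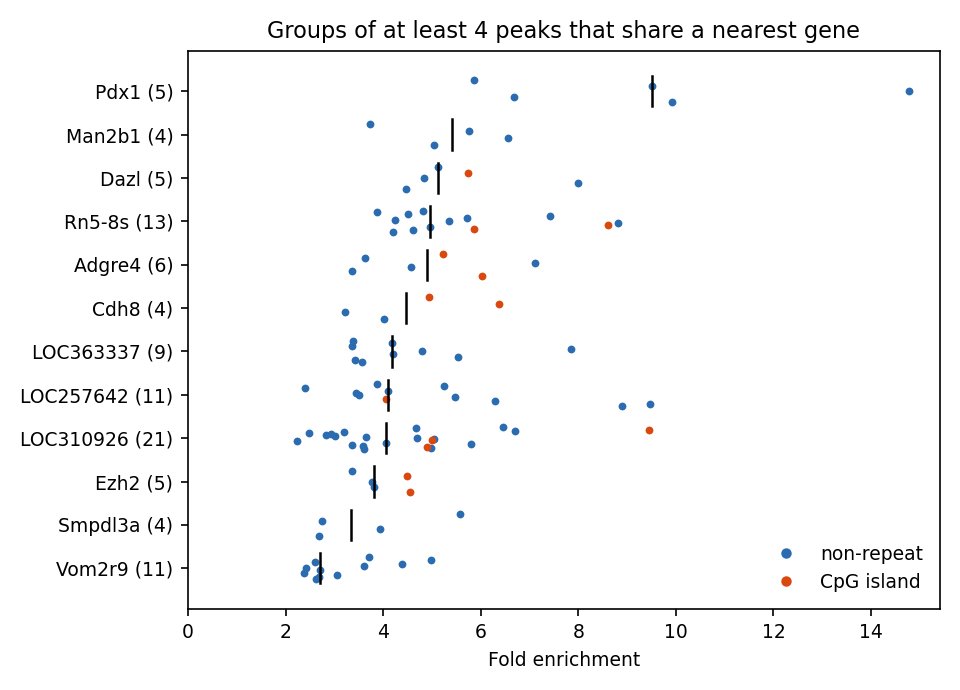
Fold enrichment of each region in the groups of at least 4 that share a nearest gene, with the number of regions in brackets and the median as a black line. The Vom2r9 regions lie between 2.38 and 4.99 and the Pdx1 regions between 5.86 and 14.8.

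Genes of germ cells and sperm were nearest to 17 regions (9 of 20 listed genes), with a median fold enrichment of 6.01. Besides Hils1, they were Dazl, which encodes an RNA-binding protein of germ cells, with 5 regions of 4.47 to 8.0, Nxf7 with 3 of 5.85 to 10.3, Cfap126 with 3 of 4.13 to 6.54, and Spin2a (14.5), Camk4 (13.3), Efhb (6.01), Ttll2 (3.48) and Gas8 (3.08). Gas8, a gene of the motile cilium, had one of the largest pileups, 332 tags, over a background of 107.8. Dazl regions lay 46.8 to 540.0 kb from the start, so the nearest gene is a label of position here. Chromatin genes were nearest to 9 regions (4 of 14 listed), with Arid1a at 11.6 and Hist1h2an at 10.7 and 7.07 besides Ezh2 and Hils1. Chemosensory receptor genes were nearest to 16 regions (6.75%) and 6.14% of the other annotated peaks. Vom2r9 alone accounted for 11 of the 16, so no median is compared; the others were nearest Olr299, Olr1474 and Vom2r7 (3.07 to 8.60). Genes of the immune region were nearest to 2 regions (0.84%) and to 1 of the other 1693 annotated peaks (0.06%), counts too small to compare. MicroRNA genes were nearest to 4 regions (1.69%, and 2.07% of the other annotated peaks). These were Mir1 (13.8), Mir30a (7.61) and Mir3556b (4.72 and 3.50). The germ cell and chromatin lists were drawn up with the nearest genes of these regions known, so their counts are a description and are not set against other peaks.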

How the data were processed

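Per the file headers, peaks were called by the authors with MACS 2.0.9 in broad mode on merged BAM files at a p-value cutoff of 5e-05, and the study's methods name another MACS version and a lower p cutoff. The methods describe calling on merged files, as the header does, and also mention calls per replicate. The study's description of the list has it hold peaks found in both replicates, which conflicts with the header. The header was followed. The submitters' processing notes name Bowtie2, HOMER and rn6. Of 34071564 IP tags 16203958 (47.6%) were kept, with up to 2 per position, and of 83508652 input tags 78371120 (93.8%), with up to 3. The deposited values are a pileup signal, a fold enrichment ratio over the local background, and -log10 p. The deposited length and summit were also used, and 1 further column, the adjusted p, was not used here.

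Local background was computed as pileup divided by fold, and the genome background from the header. The -log10 p recomputed from the Poisson tail lay within 0.1 of the deposited value for 234 of 237 regions. All pileups were even, as if both tags of a pair or 2 duplicates had been counted, and which of these holds was not tested. Each pair of tags was therefore also counted once, which widens the intervals given in the Results (for Nop2 to 86.45 to 132.47). Python 3.11.15, pandas 2.3.3 and SciPy 1.17.1 were used, and functions were tested on simulated data. Of 115 nearest genes, 109 matched RefSeq (GRCr8) by symbol or synonym.

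Regions named were the 10 of largest fold and 5 of smallest p, genic ones outside the ribosomal RNA group, CpG island regions within 10 kb of a TSS and the 5 of largest fold, those chosen for ChIP-PCR, groups of at least 4 per nearest gene, the ribosomal RNA group by annotation, and members of the lists on germ cells, chromatin, chemosensory receptors, the immune region, microRNAs and ribosomal RNA. Other regions named were chosen after their values were seen. Members and lists were chosen with earlier results of these data known. Base composition of the peaks was not analysed here.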

Additional observations from a re-analysis of the deposited data

How the results depend on the processing

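No paired analysis was possible because IP and input samples share replicate numbers in the labels but the list was called on merged samples. For the same reason leaving out each replicate could not be run.

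Of 64 values under alternatives, 46 stayed within the interval of the value reported (counts within 1.5 times) and 18 moved. Keeping only a -log10 p of at least 25 left 143 regions, with a median length of 502 bp and 29.4% in the ribosomal RNA group. Keeping only a fold enrichment of at least 5 left 137, with a median fold enrichment of 8.57 (8.46 for non-repeat regions), a median length of 342 bp, 38.0% at 10 or more, 19.7% at the genome background, 27.0% within 10 kb of another and 13.1% in the ribosomal RNA group; the rise in fold follows from the filter itself. Without the ribosomal RNA group 34.9% lay within 10 kb of another. Counting regions within 1 kb once gave 35.3% within 10 kb and 14.7% in the ribosomal RNA group, which follows in part from the merging. Among intergenic regions 14.6% were in the ribosomal RNA group. Keeping only regions with the summit within 200 bp of the centre, an alternative chosen after seeing the data, gave a median length of 338.5 bp, 40.7% within 10 kb and 15.5% in the ribosomal RNA group. The cause of the other moves was not tested. The share in the ribosomal RNA group has no value without it.

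When both tags of a pair counted as 1, 30 instead of 35 of the 143 regions named singly or as part of a group under the rule had an interval above the whole-list median fold enrichment. No region could rise above a p of 1e-05 by this change, given the strength of the annotated peaks, so the p-values say nothing here. The main limits are the merged samples, the shortened copy of the annotation, which covered 16.7% of the list, and nearest genes that are often far away.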
